A study of Mus musculus with 6 samples.

Results

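The 37 genes described here encode the machinery that takes a cell through G1, DNA replication and mitosis. They were named as replication and mitosis genes by a rule that uses no measured value, though with earlier results of these data known. All 37 were found among the 37620 mouse genes counted in each library, and all 37 had enough reads to be tested. RNA was sequenced from 3 groups of cultured mouse cells with 2 libraries each. The NPC group holds neural progenitor cells derived in culture from J1 embryonic stem cells. The Phc1-KO group is genotype Phc1-/- and derived from the same J1 line. Phc1 encodes a Polyhomeotic subunit of Polycomb repressive complex 1, which keeps developmental genes silent. The ESC group, against which the others were set, holds wild-type J1 stem cells grown with LIF and serum on mitomycin-C inactivated mouse embryonic fibroblast feeders and depleted of those feeders before use. All 3 groups thus trace to the J1 line; how many knock-out clones were used is not given in the labels. The labels conflict for Phc1-KO: the study's title and design name these cells as stem cells, whereas their cell type entry reads NPC.

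A cell commits to division when D-type cyclins with Cdk4 or Cdk6, and E-type cyclins with Cdk2, phosphorylate the retinoblastoma family and free the E2F transcription factors. E2F then drives genes for licensing and copying DNA, and MYBL2, FOXM1 and the MuvB complex drive a later wave of genes for mitosis. Mouse embryonic stem cells are known for a short G1 phase and rapid division, and neural progenitors for a longer G1.

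Gene counts per library lay between 15226214 in NPC 1 and 21893821 in Phc1-KO 2. Phc1 itself had 326 and 267 counts per 1000000 gene reads (CPM) in Phc1-KO, against 459.7 and 460.5 CPM in ESC, so its RNA was lower in the labelled knock-out (log2 fold change -0.63, SE 0.15, adjusted p = 0.0412) but still present; the deleted stretch is not given in the labels. The 6 ESC marker genes summed to 2021 and 2470 CPM in Phc1-KO and to 6.97 and 7.34 CPM in NPC, against 2074 and 2089 CPM in ESC. The 6 progenitor marker genes summed to 2622 and 1036 CPM in NPC and to 169.8 and 143.9 CPM in Phc1-KO, against 162.4 and 171.7 CPM in ESC; among them Hes5 was near 0 in every library, also in NPC. In Phc1-KO, Pax6 was the 1 progenitor marker called higher than in ESC, and Nanog was the 1 stem cell marker called lower, with 136 and 112 CPM in Phc1-KO against 218 and 223 CPM in ESC (log2 fold change -0.83, SE 0.16, adjusted p = 0.0245). Esrrb was also below ESC in both Phc1-KO libraries without passing (log2 fold change -0.79, SE 0.25, adjusted p = 0.0926). The 10 markers of fibroblasts, the cell type of the feeders, summed to 7395 and 11860 CPM in NPC and to 1063 and 854 CPM in Phc1-KO, against 419.9 and 412.7 CPM in ESC, with 9 of them called higher in NPC and 6 in Phc1-KO. The 6 macrophage markers summed to 6.18 and 8.25 CPM in NPC and to 23.0 and 17.6 CPM in Phc1-KO, against 130.4 and 131.4 CPM in ESC, and Emr1 was at 0 in both NPC libraries. The part these other cells have in the results below was not tested. In bulk RNA, fewer dividing cells and less RNA per dividing cell cannot be told apart. The labels call the 2 libraries of a group biological replicates. The ESC pair was the closest, with a chi-square per degree of freedom of 1.44 over genes, where the 2 NPC libraries gave 47.0 and the 2 Phc1-KO libraries 48.8. Read sampling alone gives a value near 1, so the ESC pair held little spread beyond it. P-values measure only the spread between these libraries.

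Promoter sequence was read for the 31 genes with an entry in the RefSeq promoter table, in 34 promoters of 300 bases that run from 250 bases before to 50 after the gene start. Each was matched letter for letter to the mm9 genome for its position. E2F factors bind sites searched here as TTTCCCGC, TTTCGCGC, TTTGCCGC and TTTGGCGC. The cell cycle genes homology region (CHR), searched as TTTGAA, is bound by the MuvB complex, and the box CCAAT is bound by NF-Y. Both strands were searched. The 200 bases from 170 before to 30 after the start are shown for 7 genes, 5′ to 3′ on the strand of the gene, with matches to any of these letters in capitals. Mcm5 and Mcm6 show E2F matches, and in both genes 2 of these matches overlap. Ccnb2, Cdc20, Cdk1 and Mki67 show CHR beside CCAAT, and Cdk1 holds E2F as well. Mybl2, the gene with the largest fall in NPC, holds none of these exact letters in its window. Sites with other letters were not searched, so the absence of a match does not show the absence of a site.
Mcm5, chr8:77633238-77633437, plus strand, mm9: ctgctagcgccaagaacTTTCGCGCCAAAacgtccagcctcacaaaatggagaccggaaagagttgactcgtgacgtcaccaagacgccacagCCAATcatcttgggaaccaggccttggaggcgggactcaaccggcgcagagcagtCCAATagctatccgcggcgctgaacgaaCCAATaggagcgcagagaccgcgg
Mcm6, chr1:130256253-130256452, minus strand, mm9: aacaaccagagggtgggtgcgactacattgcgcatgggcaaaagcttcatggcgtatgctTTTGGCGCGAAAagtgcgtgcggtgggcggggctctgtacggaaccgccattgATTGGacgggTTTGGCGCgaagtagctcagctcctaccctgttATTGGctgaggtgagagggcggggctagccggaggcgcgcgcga
Mybl2, chr2:162880201-162880400, plus strand, mm9: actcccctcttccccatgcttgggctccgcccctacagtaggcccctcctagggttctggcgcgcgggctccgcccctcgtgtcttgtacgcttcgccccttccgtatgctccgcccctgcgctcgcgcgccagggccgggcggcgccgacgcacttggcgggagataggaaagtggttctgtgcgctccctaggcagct
Ccnb2, chr9:70269332-70269531, minus strand, mm9: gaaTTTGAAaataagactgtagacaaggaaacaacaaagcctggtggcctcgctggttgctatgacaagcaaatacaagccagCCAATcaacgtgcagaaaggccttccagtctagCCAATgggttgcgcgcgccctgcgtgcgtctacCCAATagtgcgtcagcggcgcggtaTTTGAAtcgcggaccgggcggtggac
Cdc20, chr4:118109919-118110118, minus strand, mm9: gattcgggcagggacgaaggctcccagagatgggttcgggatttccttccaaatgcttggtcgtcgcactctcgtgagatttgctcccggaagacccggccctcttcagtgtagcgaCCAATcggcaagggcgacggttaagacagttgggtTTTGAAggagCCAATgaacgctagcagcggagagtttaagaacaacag
Cdk1, chr10:68815631-68815830, minus strand, mm9: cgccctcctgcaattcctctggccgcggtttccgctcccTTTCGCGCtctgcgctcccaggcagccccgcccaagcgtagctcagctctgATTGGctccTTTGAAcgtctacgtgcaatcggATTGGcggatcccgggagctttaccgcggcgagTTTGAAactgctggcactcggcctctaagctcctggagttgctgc
Mki67, chr7:142908033-142908232, minus strand, mm9: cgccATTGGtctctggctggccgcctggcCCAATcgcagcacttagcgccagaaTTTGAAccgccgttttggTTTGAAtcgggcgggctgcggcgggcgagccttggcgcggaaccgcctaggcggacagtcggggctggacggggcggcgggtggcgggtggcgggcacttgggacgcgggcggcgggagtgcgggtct

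The matches were counted by role. Ccnd2, Ccne2, Mcm4, Ccna2, Aurkb and Wee1 had no promoter entry. The 9 licensing promoters belong to 8 genes, since Mcm7 has 2. An E2F match stood in 6 of 9 origin licensing promoters (66.7%) and in 1 of 10 promoters of G2 and mitosis genes, against 744 of all 32851 promoters in the table (2.26%). A CHR match stood in 8 of 10 promoters of G2 and mitosis genes and in 1 of 9 licensing promoters (11.1%), against 17.9% of all promoters. CCAAT stood in all 10 G2 and mitosis promoters and in 7 of 9 licensing promoters (77.8%), against 37.4% of all promoters. Among the 24 genes lower in NPC that had a promoter, 33.3% held E2F and 33.3% held CHR, beside 28.6% and 28.6% of the 7 others.

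**Figure D1:**
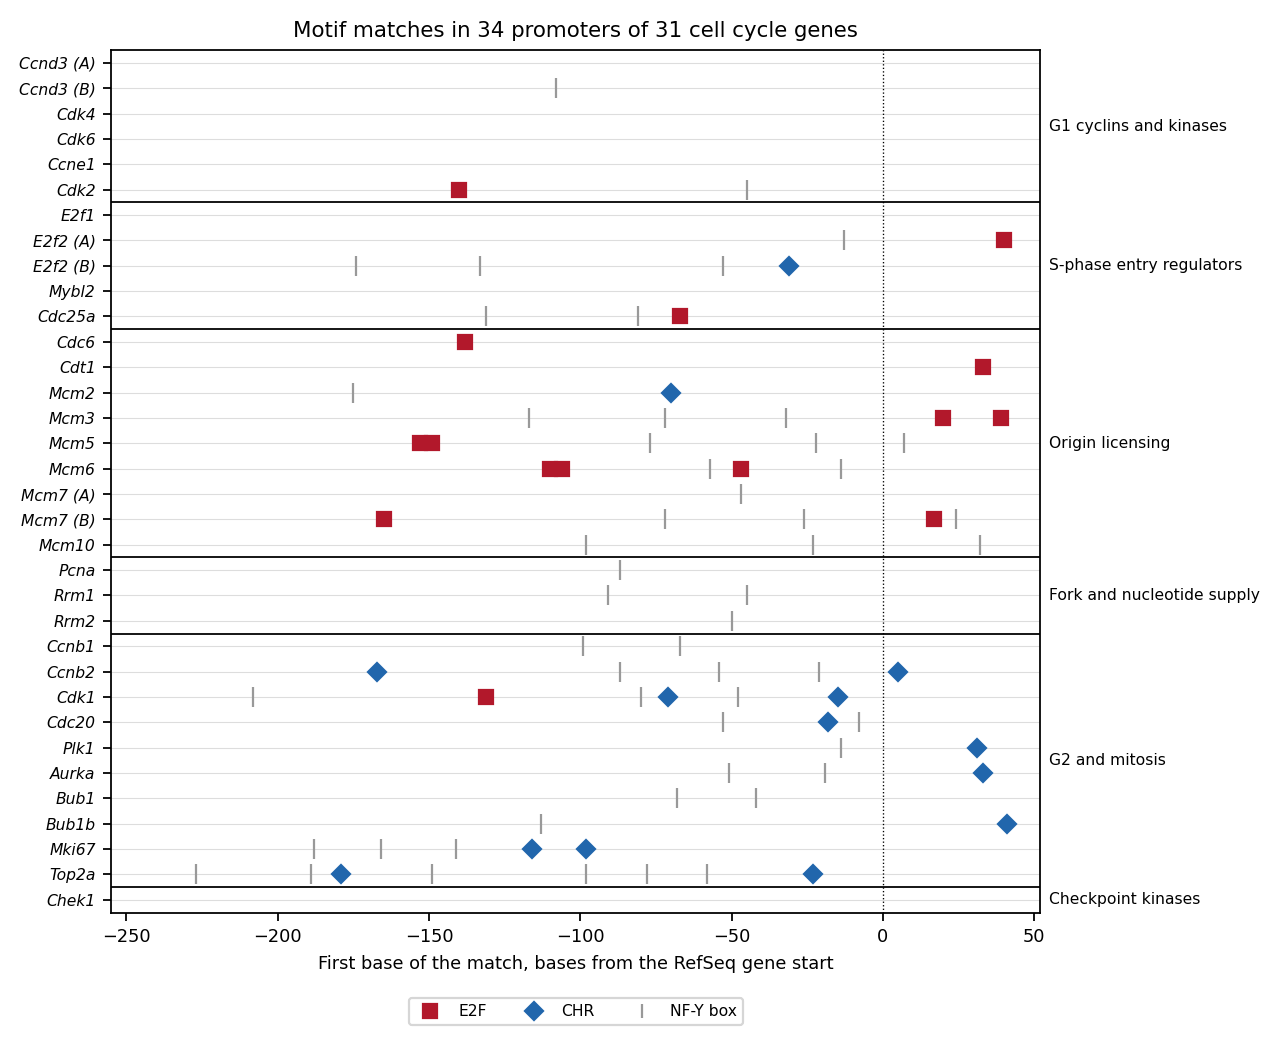
Positions of E2F (red squares), CHR (blue diamonds) and NF-Y box (grey ticks) matches in 34 promoters of 31 genes, in bases from the RefSeq gene start, with genes in rows grouped by role; A and B mark 2 promoters of 1 gene. E2F matches stand in 6 of 9 licensing promoters and CHR matches in 8 of 10 G2 and mitosis promoters.

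The first comparison asked how the cell cycle genes of NPC differ from those of the stem cells they came from. In NPC, 28 of the 37 genes were lower (75.7%, where 30.9% of all 17489 genes tested were called lower) and 1 was higher (2.7%, where 30.4% of all genes were called higher), by edgeR's quasi-likelihood test at a Benjamini-Hochberg adjusted p under 0.05. In either direction 61.3% of all genes were called. The median log2 fold change over the 37 genes was -1.49, beside -0.01 over all genes tested. Both NPC libraries lay below both ESC libraries for 33 of the 37 genes (43.4% of all genes), and above them for 2 (41.8% of all genes). The fitted difference was beyond 2-fold for 25 genes and beyond 4-fold for 10. By role, all 9 licensing genes, 11 of 12 genes of G2 and mitosis, 3 of 4 regulators of S-phase entry, both checkpoint kinases and 2 of 3 genes of the fork and of nucleotide supply were lower, but only 1 of 7 G1 cyclins and kinases. Together the 37 genes took 0.649% and 0.530% of gene counts in NPC and 0.913% and 1.04% in Phc1-KO, against 0.991% and 0.977% in ESC.

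**Figure D2:**
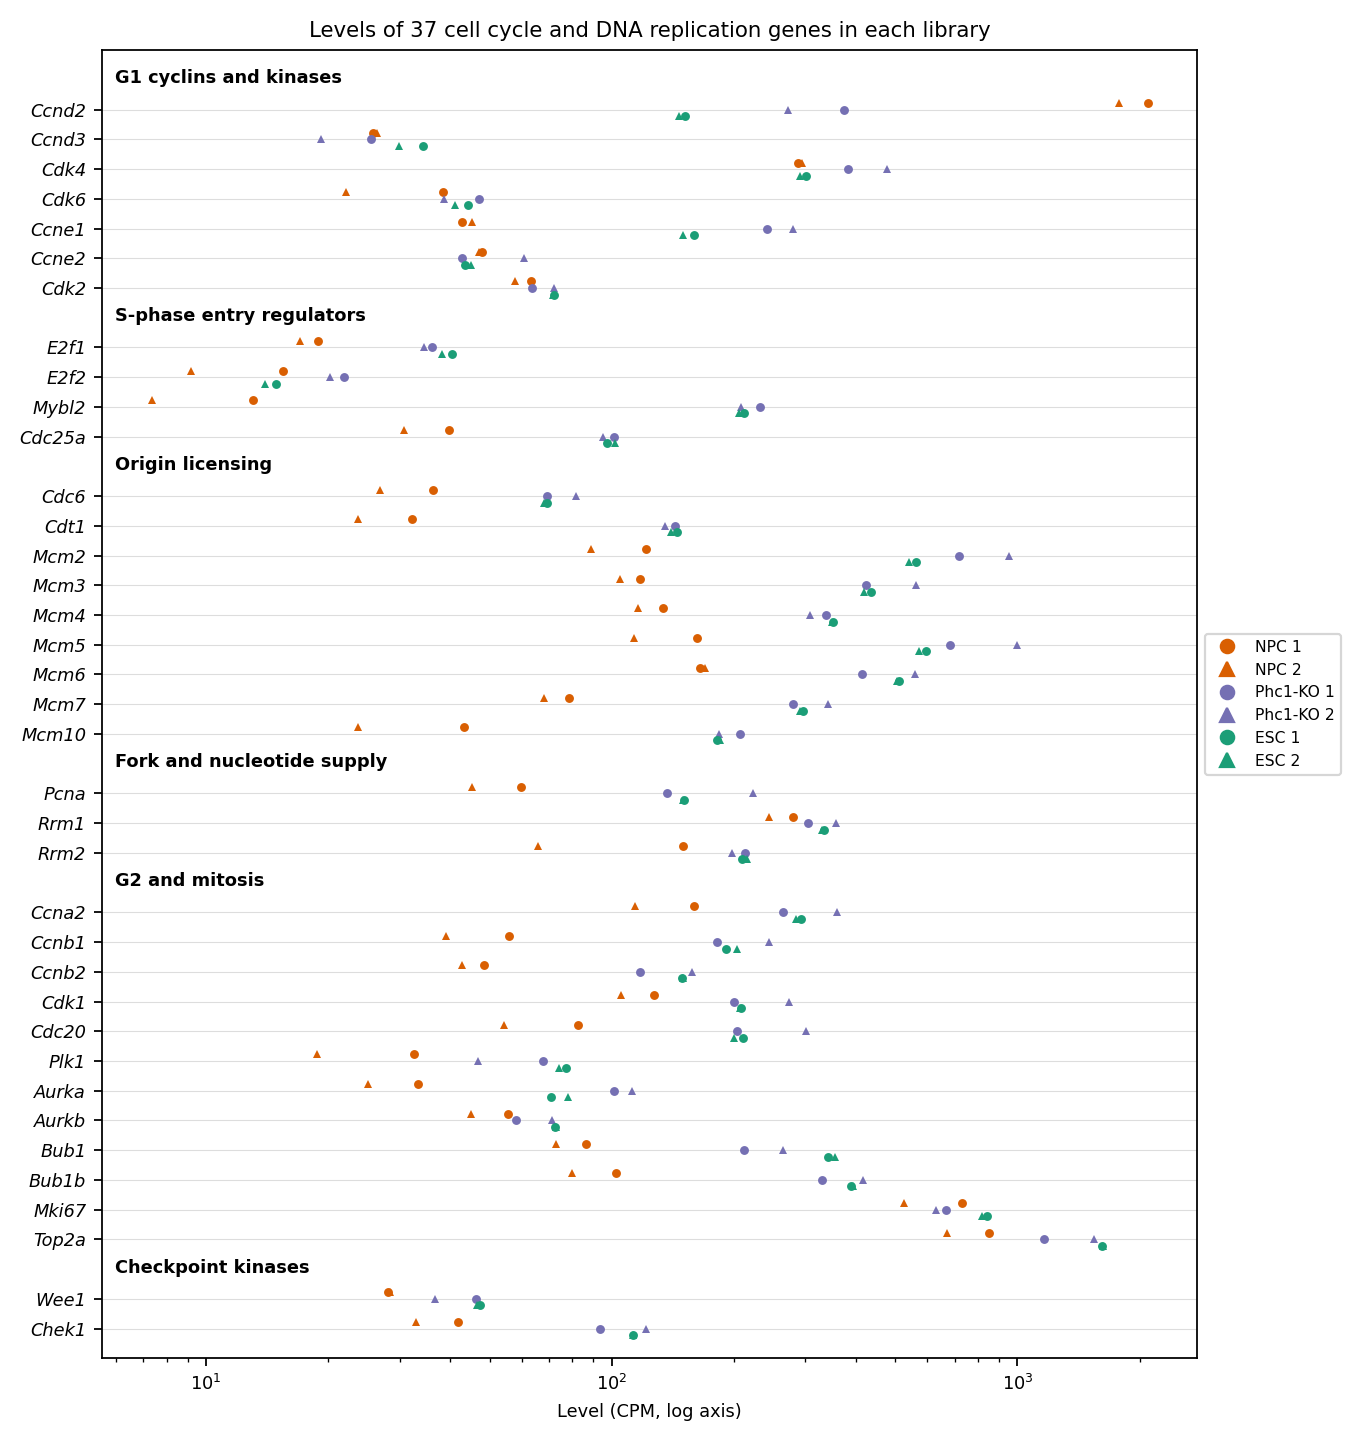
Level of each of the 37 genes in every library, in CPM on a log axis, with circles for replicate 1 and triangles for replicate 2 of NPC (orange), Phc1-KO (purple) and ESC (green). NPC points lie left of the ESC points for 33 genes, and Ccnd2 lies furthest to the right in NPC.

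**Figure D3:**
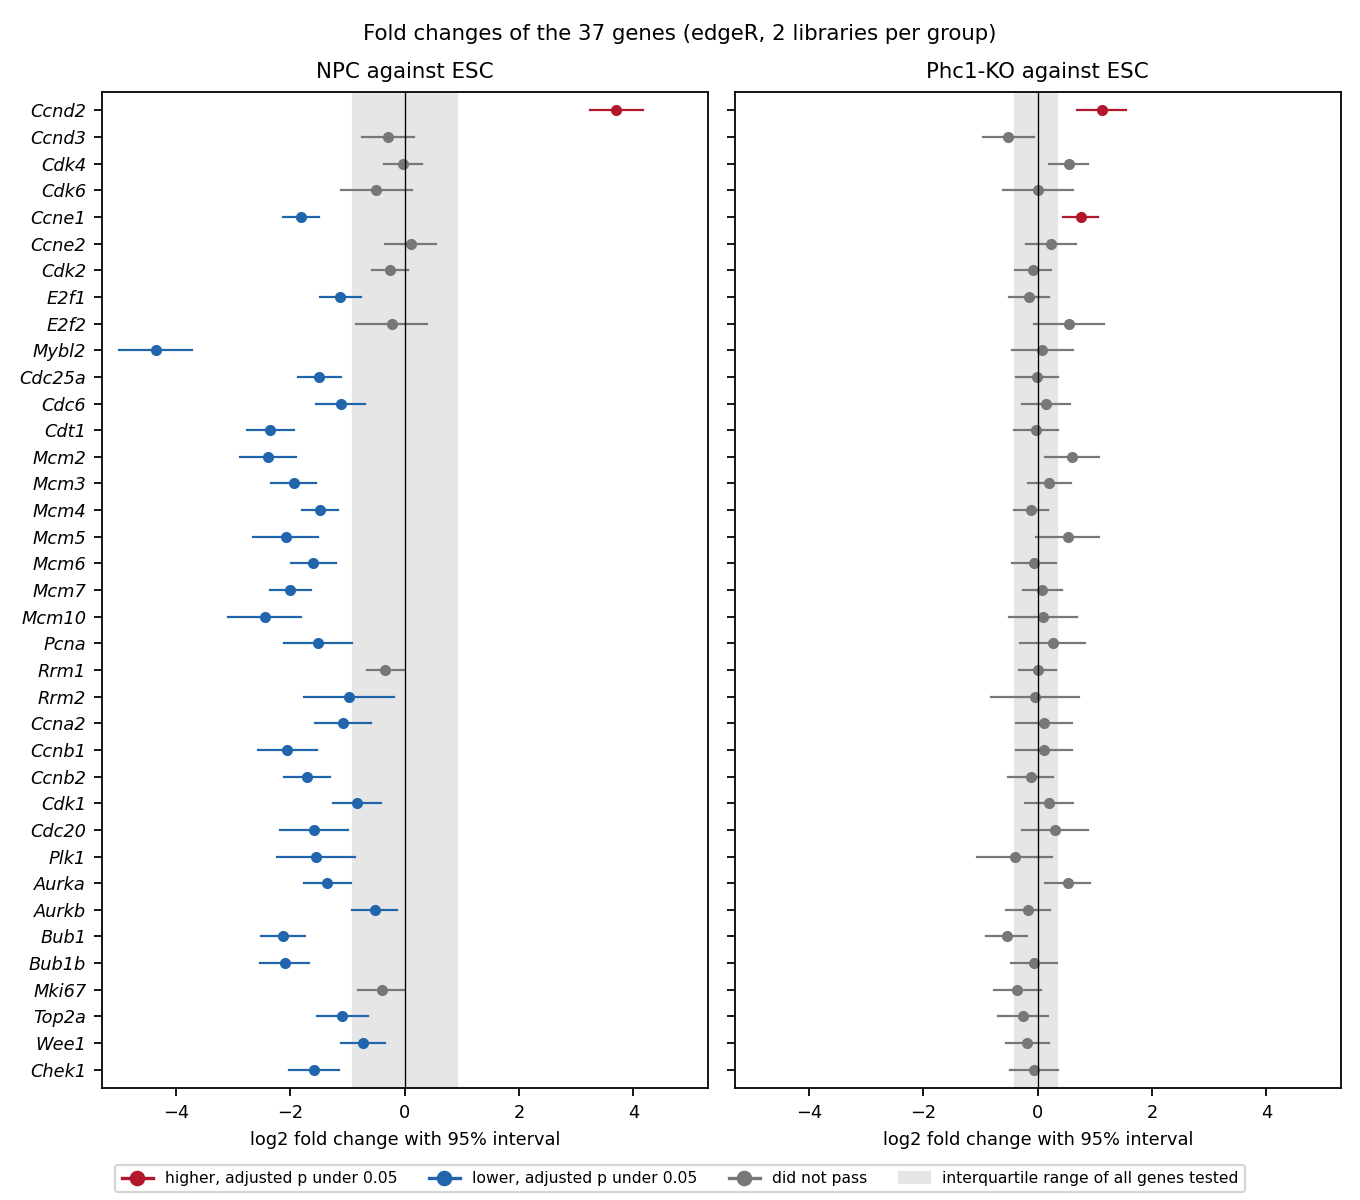
Log2 fold change of each gene with its 95% interval, in NPC against ESC (left) and in Phc1-KO against ESC (right), with genes called higher in red, called lower in blue and not passing in grey; the grey band is the interquartile range of all genes tested. In NPC 28 genes were lower and 1 higher, and in Phc1-KO 2 were higher.

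Among the G1 cyclins and kinases, cyclin D2 and cyclin E1 moved in opposite directions in NPC. Ccnd2 (ENSMUSG00000000184, chr6:127075797-127101066, minus strand, mm9), the D-type cyclin that pairs with Cdk4 and Cdk6, had 2093 and 1781 CPM in NPC and 373 and 272 CPM in Phc1-KO, against 152 and 146 CPM in ESC. All 3 groups stood apart, with NPC highest and ESC lowest. The NPC level was 13.0 times that of ESC (log2 fold change 3.70, SE 0.20, adjusted p = 2.01e-05). Ccne1 (ENSMUSG00000002068, chr7:38883003-38892553, minus strand), the E-type cyclin that activates Cdk2, had 42.8 and 45.3 CPM in NPC and 242 and 280.3 CPM in Phc1-KO, against 159 and 150.0 CPM in ESC. Here NPC was lowest and Phc1-KO highest, again with no overlap between groups. The fall in NPC passed the test (log2 fold change -1.81, SE 0.13, adjusted p = 6.45e-05).

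The other 5 genes of G1 did not pass the test in NPC. Cdk4, the kinase partner of the D-type cyclins, had 288 and 294 CPM in NPC, against 301 and 290.5 CPM in ESC, and the values overlapped. Its log2 fold change was -0.02 with a 95% interval of -0.36 to 0.31. Cdk6, the second such kinase, had 38.3 and 22.1 CPM in NPC, against 44.3 and 41.1 CPM in ESC. Only NPC 2 was far below ESC, and without NPC 1 Cdk6 was called lower by 0.95 on the log2 scale (adjusted p = 0.00575). Ccnd3 had 25.8 and 26.4 CPM in NPC, against 34.2 and 29.8 CPM in ESC. Ccne2 had 47.9 and 46.9 CPM in NPC, against 43.4 and 45.0 CPM in ESC, with a 95% interval of -0.34 to 0.55 on the log2 scale for this second E-type cyclin. Cdk2 had 63.2 and 57.8 CPM in NPC, against 72.2 and 71.8 CPM in ESC. Exons of Ccnd3, Cdk4, Cdk6 and Ccne2 overlap a gene on the opposite strand (Bysl, Tspan31, Gm17590 and Ints8). Since the strand setting of the counting is not given, how this overlap affected their counts is not known.

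Levels of different genes were compared per kilobase of exon. Ccnd2 averaged 339.8 ± 38.7 CPM per kb in NPC (SD, n = 2) and was there the highest of the 37 genes, ahead of Cdk4 at 89.6 ± 1.15 and Top2a at 83.9 ± 14.3. In ESC it averaged 26.1 ± 0.681. Summed over Ccnd1, Ccnd2 and Ccnd3, D-type cyclins had 715.4 and 434.8 CPM per kb in NPC and 159.3 and 134.4 in Phc1-KO, against 83.9 and 80.0 in ESC. Summed over Ccne1 and Ccne2, E-type cyclins had 29.8 and 30.5 CPM per kb in NPC and 103.0 and 122.7 in Phc1-KO, against 72.3 and 69.2 in ESC. The ratio of D-type to E-type cyclin RNA was thus 24.0 and 14.3 in NPC and 1.55 and 1.10 in Phc1-KO, against 1.16 and 1.16 in ESC. Both sums stood higher in Phc1-KO than in ESC while their ratio in Phc1-KO lay on either side of it. The NPC sum differed between its libraries through Ccnd1, which is no member of the 37: it had 1292 and 424 CPM in NPC and 316 and 299.9 CPM in Phc1-KO, against 162 and 158 CPM in ESC.

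**Figure D4:**
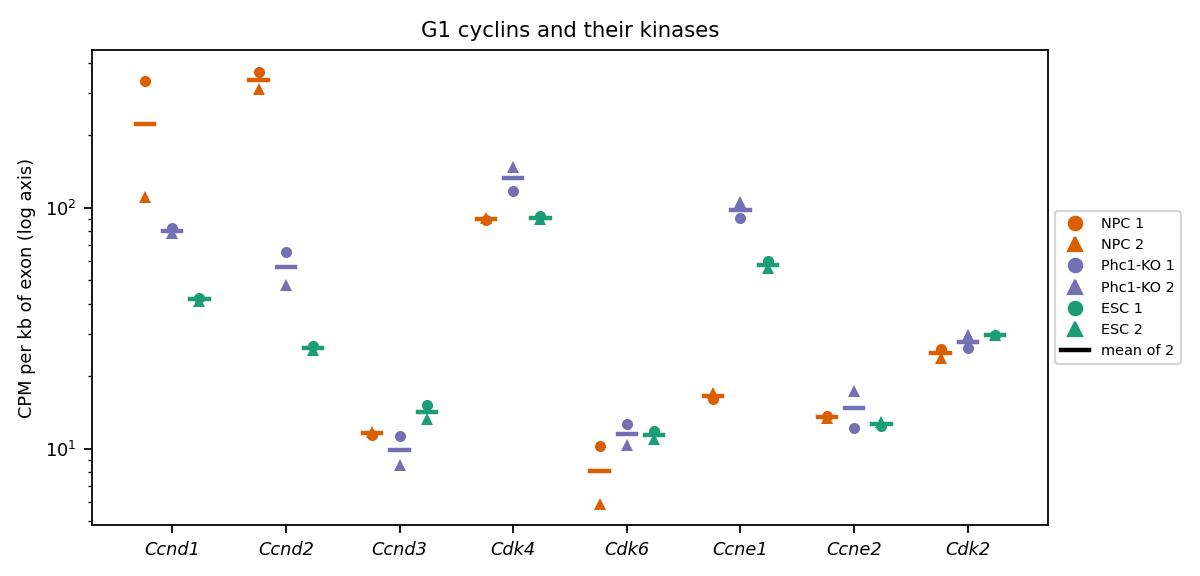
Level of 4 G1 cyclins of the 37, Ccnd1 and the kinases Cdk2, Cdk4 and Cdk6 in every library, in CPM per kb of exon on a log axis, in the order NPC (orange), Phc1-KO (purple), ESC (green); bars are means of 2 libraries. Ccnd2 averaged 339.8 in NPC, 56.6 in Phc1-KO and 26.1 in ESC, and Ccne1 averaged 16.6, 98.1 and 58.1 in the same order.

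Of the regulators of S-phase entry, Mybl2 fell the furthest of all 37 genes. Mybl2 (ENSMUSG00000017861, chr2:162880423-162910424, plus strand), a Myb factor that works with MuvB to turn on mitotic genes, had 13.0 and 7.34 CPM in NPC and 232 and 209 CPM in Phc1-KO, against 212 and 206 CPM in ESC. Both NPC libraries were far below all the others, and Phc1-KO and ESC overlapped. The level in NPC was 20.5 times lower than in ESC (log2 fold change -4.36, SE 0.27, adjusted p = 3.18e-05). E2f1, an activating E2F, had 18.9 and 17.0 CPM in NPC, against 40.3 and 38.2 CPM in ESC (log2 fold change -1.13, SE 0.15, adjusted p = 0.000707). Cdc25a, the phosphatase that activates Cdk2 at S-phase entry, had 39.8 and 30.8 CPM in NPC, against 97.1 and 102 CPM in ESC (log2 fold change -1.49, SE 0.16, adjusted p = 0.000271). For both genes the NPC libraries lay below the ESC libraries. E2f2, another activating E2F, had 15.5 and 9.16 CPM in NPC, against 14.9 and 13.9 CPM in ESC, and did not pass. NPC 1 lay above and NPC 2 below the ESC pair, and the sign of its fold change turned with the NPC library used: -0.65 without NPC 1, where it was called lower (adjusted p = 0.0232), and 0.11 without NPC 2, where it was not called.

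Licensing loads the MCM2-7 helicase onto origins before S phase. Cdc6 and Cdt1 load it, and Mcm10 helps the loaded helicase to start. Cdt1 had 32.2 and 23.6 CPM in NPC and 143 and 135 CPM in Phc1-KO, against 145 and 140.2 CPM in ESC (NPC against ESC, log2 fold change -2.35, SE 0.17, adjusted p = 6.27e-05). Cdc6 had 36.2 and 26.9 CPM in NPC and 69.1 and 81.8 CPM in Phc1-KO, against 69.3 and 68.0 CPM in ESC (log2 fold change -1.12, SE 0.18, adjusted p = 0.00166). NPC lay below ESC for both loaders, and Cdt1 fell further in fitted size. Mcm10 had 43.3 and 23.7 CPM in NPC and 207 and 184 CPM in Phc1-KO, against 182 and 184 CPM in ESC (log2 fold change -2.45, SE 0.27, adjusted p = 0.000305), and its NPC libraries were 0.87 apart on the log2 scale.

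The 6 helicase subunits, Mcm2 to Mcm7, fell together in NPC, with log2 fold changes between -2.39 and -1.49. Mcm2 (ENSMUSG00000002870, chr6:88833469-88848774, minus strand) had 122 and 88.8 CPM in NPC and 717 and 953 CPM in Phc1-KO, against 563 and 541 CPM in ESC (NPC against ESC, log2 fold change -2.39, SE 0.21, adjusted p = 0.000122). Mcm5, whose promoter is shown above with 2 overlapping E2F matches, had 163 and 114 CPM in NPC and 681 and 996 CPM in Phc1-KO, against 596 and 573 CPM in ESC (log2 fold change -2.08, SE 0.24, adjusted p = 0.000373). For both subunits Phc1-KO 2 was the highest library. Mcm3 had 117 and 105 CPM in NPC, against 436 and 419.6 CPM in ESC. Mcm7 had 78.5 and 68.1 CPM in NPC, against 296 and 291 CPM in ESC; its exons overlap Cops6 and Ap4m1 on the opposite strand. Mcm6, with 3 E2F matches, had 165 and 170.1 CPM in NPC, against 510.3 and 505 CPM in ESC (log2 fold change -1.60, SE 0.17, adjusted p = 0.000239). The smallest fall of the 6 was that of Mcm4, which had 134 and 116 CPM in NPC, against 350.2 and 349 CPM in ESC (log2 fold change -1.49, SE 0.13, adjusted p = 0.000127). No NPC library reached an ESC library for any subunit. Summed per kb of exon, the 6 subunits had 214.6 and 180.5 CPM per kb in NPC and 800.6 and 1046 in Phc1-KO, against 764.6 and 743 in ESC. The highest subunit stood 2.62 and 2.53 times above the lowest in NPC and 3.37 and 3.70 times in Phc1-KO, against 2.55 and 2.49 times in ESC, and the lowest was Mcm7 in all 6 libraries.

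**Figure D5:**
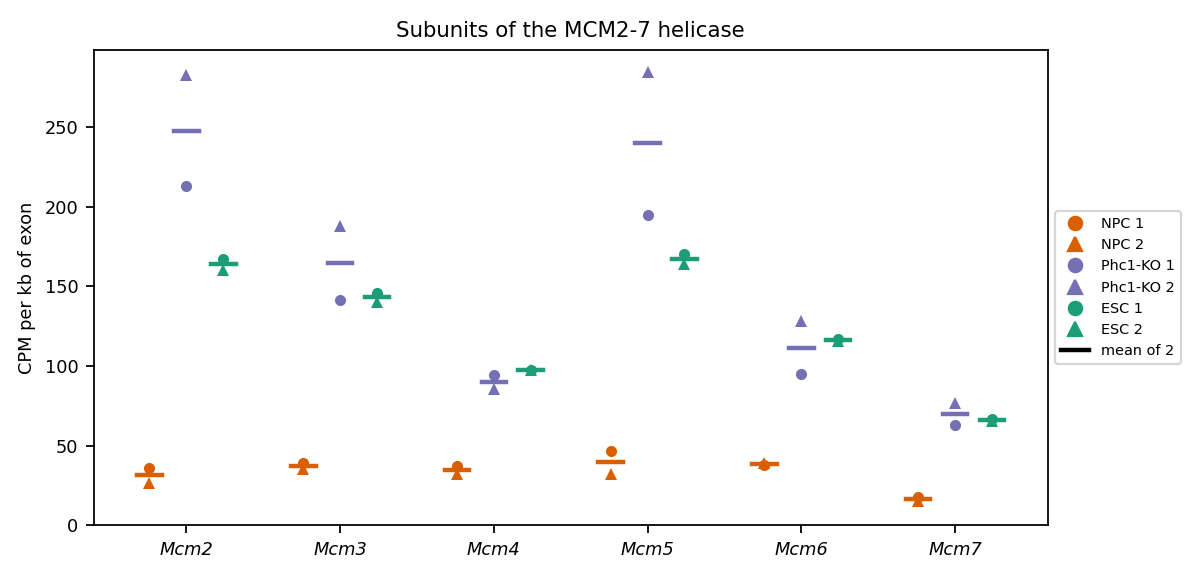
Level of the 6 subunits of the MCM2-7 helicase in every library, in CPM per kb of exon on a linear axis from 0, in the order NPC (orange), Phc1-KO (purple), ESC (green); bars are means of 2 libraries. All NPC points lie below all Phc1-KO and ESC points of the same subunit, and the Phc1-KO libraries differ most from each other for Mcm2 and Mcm5.

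At the fork, Pcna, the sliding clamp of the replicative polymerases, had 59.7 and 45.3 CPM in NPC and 137 and 223 CPM in Phc1-KO, against 150.4 and 149.8 CPM in ESC (NPC against ESC, log2 fold change -1.52, SE 0.25, adjusted p = 0.00177). NPC lay below ESC, and Phc1-KO 2 stood above all other libraries. Rrm1 and Rrm2 encode the subunits of ribonucleotide reductase, which makes the deoxynucleotides. Rrm2, the small subunit, had 149.7 and 65.8 CPM in NPC, against 209 and 215 CPM in ESC (log2 fold change -0.98, SE 0.33, adjusted p = 0.0375), with NPC 1 between NPC 2 and ESC. Its call was lost in 6 of the 16 alternatives, without any 1 of ESC 1, ESC 2, Phc1-KO 1 or Phc1-KO 2 among them. Rrm1, the large subunit, had 279.6 and 244 CPM in NPC, against 333 and 329 CPM in ESC, and did not pass (log2 fold change -0.34, SE 0.14, adjusted p = 0.0649), although both NPC libraries lay below ESC. Rrm1 passed in 6 of the alternatives. The difference between these subunits was not tested. Reads of Pcna may also fall in its processed copies Pcna-ps1 and Pcna-ps2.

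In G2 and mitosis, 11 of 12 genes fell in NPC. Cyclin B1, which with Cdk1 drives entry into mitosis, had 55.8 and 39.0 CPM in NPC and 182 and 244 CPM in Phc1-KO, against 191 and 204 CPM in ESC (Ccnb1, NPC against ESC, log2 fold change -2.06, SE 0.22, adjusted p = 0.000264). Ccnb2, with CHR on both sides of its start, had 48.5 and 42.8 CPM in NPC and 117 and 157 CPM in Phc1-KO, against 149 and 149 CPM in ESC (log2 fold change -1.71, SE 0.17, adjusted p = 0.000211). Both B-type cyclins were below ESC in both NPC libraries, while Phc1-KO lay on both sides of ESC. Ccna2, the cyclin of S phase and G2, had 159 and 114 CPM in NPC, against 293 and 285 CPM in ESC (log2 fold change -1.08, SE 0.21, adjusted p = 0.00357). Cdk1 had 127 and 105 CPM in NPC, against 208 and 207 CPM in ESC, and fell less than either B-type cyclin in fitted size (log2 fold change -0.83, SE 0.18, adjusted p = 0.00592). Ccnb2 has a processed copy, Ccnb2-ps, and Ccna2 and Cdc20 overlap Exosc9 and Elovl1 on the opposite strand, so that part of their counts is uncertain.

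Bub1 and Bub1b, kinases of the spindle checkpoint, had the largest fitted falls of the mitotic genes. Bub1 had 86.3 and 72.9 CPM in NPC and 212 and 264 CPM in Phc1-KO, against 342 and 354 CPM in ESC (NPC against ESC, log2 fold change -2.13, SE 0.16, adjusted p = 6.94e-05). Bub1b, which encodes BubR1, had 103 and 79.6 CPM in NPC and 330.1 and 417 CPM in Phc1-KO, against 389.8 and 393 CPM in ESC (log2 fold change -2.10, SE 0.18, adjusted p = 0.000111). All 3 groups stood apart for Bub1, with ESC highest, whereas Phc1-KO spanned ESC for Bub1b. Cdc20, the activator of the anaphase-promoting complex that Bub1b holds in check, had 82.7 and 54.4 CPM in NPC, against 211 and 200.1 CPM in ESC (log2 fold change -1.58, SE 0.25, adjusted p = 0.00156). Plk1, a kinase of spindle and centrosome, had 32.6 and 18.8 CPM in NPC, against 77.0 and 74.0 CPM in ESC (log2 fold change -1.56, SE 0.29, adjusted p = 0.00301). Both were lower in each NPC library, and NPC 2 was the lowest of all 6 libraries for each. Aurka, the Aurora kinase of the spindle poles, had 33.2 and 25 CPM in NPC, against 70.9 and 77.8 CPM in ESC (log2 fold change -1.35, SE 0.17, adjusted p = 0.000574). Aurkb, the Aurora kinase of the centromere, had 55.6 and 45.1 CPM in NPC, against 72.4 and 72.8 CPM in ESC (log2 fold change -0.53, SE 0.17, adjusted p = 0.0274), and lost its call without ESC 1, ESC 2 or NPC 2, with an adjusted p between 0.0992 and 0.137.

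Top2a and Mki67 are widely used as markers of dividing cells. Top2a, the topoisomerase that untangles sister chromatids, had 853 and 669 CPM in NPC and 1159.7 and 1543 CPM in Phc1-KO, against 1618 and 1629 CPM in ESC (NPC against ESC, log2 fold change -1.09, SE 0.19, adjusted p = 0.00213). Mki67, which encodes the Ki-67 protein that coats mitotic chromosomes, had 728 and 524 CPM in NPC and 665 and 629.9 CPM in Phc1-KO, against 839 and 819 CPM in ESC. It was the 1 gene of this role that did not pass in NPC (log2 fold change -0.41, SE 0.17, adjusted p = 0.0766), although both NPC libraries lay below ESC. Without NPC 1 it was called lower by 0.66 on the log2 scale (adjusted p = 0.00506). Both checkpoint kinases fell. Chek1, which halts the cycle when replication stalls, had 41.8 and 32.9 CPM in NPC, against 112 and 113 CPM in ESC (log2 fold change -1.59, SE 0.18, adjusted p = 0.000383). Wee1, which holds Cdk1 inactive before mitosis, had 28.1 and 28.4 CPM in NPC, against 47.4 and 46.4 CPM in ESC (log2 fold change -0.73, SE 0.16, adjusted p = 0.00637), and its call was lost without ESC 1 (adjusted p = 0.0612) or ESC 2 (adjusted p = 0.0531).

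The NPC libraries were not equal for these genes. NPC 1 stood above NPC 2 for 32 of the 37 genes, where it did so for 53% of the 10197 genes with at least 10 CPM. The median difference between NPC 1 and NPC 2 over the 37 genes was 0.35 on the log2 scale in either direction, beside 0.22 over all these genes. NPC 1 also had the higher sum of progenitor markers and the lower sum of fibroblast markers, as given above, and the part these have in the difference was not tested. The 37 genes differed by a median of 0.32 between the Phc1-KO libraries (0.25 over all these genes) and of 0.04 between the ESC libraries (0.06 over all these genes). In Phc1-KO, replicate 1 was the higher for 14 genes and replicate 2 for 23, where replicate 1 was the higher for 43% of all genes with at least 10 CPM.

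Further genes of the same pathways, 136 in 9 lists, were read beside the 37 in NPC against ESC, and 90 of them were lower (66.2%, where 30.9% of all genes were called lower) and 16 higher (11.8%, where 30.4% of all genes were called higher). Lists of the replication and division machinery were mostly lower: 19 of 23 replicative polymerase and fork genes, 14 of 17 origin recognition, loading and firing genes, 15 of 17 spindle and kinetochore genes, all 12 cytokinesis and condensin genes, 12 of 15 damage checkpoint genes and 6 of 8 nucleotide supply genes, with 1 higher in the last. Orc1, the largest subunit of the origin recognition complex, had 17.7 and 14.9 CPM in NPC, against 112 and 115 CPM in ESC (log2 fold change -2.80, SE 0.15, adjusted p = 1.91e-05). Gmnn, the geminin that binds and blocks Cdt1, had 18.7 and 16.3 CPM in NPC, against 90.5 and 100.4 CPM in ESC (log2 fold change -2.45, SE 0.17, adjusted p = 4.63e-05). Both were below ESC in both NPC libraries. The ratio of Gmnn to Cdt1, per kb of exon, was 1.07 and 1.27 in NPC and 1.07 and 1.38 in Phc1-KO, against 1.15 and 1.32 in ESC, so that the licensing factor and its inhibitor kept overlapping ratios in the 3 groups. Chek2, a kinase that answers DNA breaks, fell in NPC (log2 fold change -2.25, SE 0.17, adjusted p = 7.65e-05). Cdc45, a part of the active helicase, was also lower (log2 fold change -0.88, SE 0.24, adjusted p = 0.0159), a call lost without ESC 1 (adjusted p = 0.0538) or ESC 2 (adjusted p = 0.0721).

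The list of G1 cyclins, inhibitors and pocket proteins went the other way, with 8 of 15 genes higher in NPC (53.3%) and 0 lower. Over all genes tested, 30.4% were called higher and 30.9% lower. Cdkn2c, the p18 inhibitor of Cdk4 and Cdk6, had 37.3 and 31.2 CPM in NPC, against 2.34 and 2.37 CPM in ESC (log2 fold change 3.86, SE 0.38, adjusted p = 0.000194). Cdkn2a, the Ink4a and Arf locus and a known Polycomb target, had 50.8 and 96.4 CPM in NPC and 49.3 and 40.6 CPM in Phc1-KO, against 12.8 and 14.6 CPM in ESC (NPC against ESC, log2 fold change 2.43, SE 0.31, adjusted p = 0.000587). Cdkn1c, the p57 inhibitor, had 174 and 194 CPM in NPC, against 36.9 and 39.8 CPM in ESC (log2 fold change 2.26, SE 0.14, adjusted p = 3.58e-05). NPC was above ESC in both libraries for all 3 inhibitors. Cdkn1a, the p21 inhibitor, was higher too (log2 fold change 1.89, SE 0.19, adjusted p = 0.000205), and so was Ccnd1 (log2 fold change 2.43, SE 0.46, adjusted p = 0.00324). Rb1, the retinoblastoma protein, passed as higher (log2 fold change 0.47, SE 0.16, adjusted p = 0.04), and its call was lost in 9 of the 16 alternatives. Cdkn1b, the p27 inhibitor, did not pass (log2 fold change -0.13, SE 0.14, adjusted p = 0.469), nor did the pocket protein gene Rbl1 (log2 fold change 0.26, SE 0.15, adjusted p = 0.171). Of the E2F family and MuvB, 8 of 15 genes were lower (53.3%) and 3 higher (20%). E2f4, an E2F that acts mainly as a repressor, was lower (log2 fold change -1.75, SE 0.18, adjusted p = 0.000228), as was E2f8, an atypical repressor E2F (log2 fold change -1.39, SE 0.25, adjusted p = 0.00249). E2f3 was higher (log2 fold change 0.44, SE 0.13, adjusted p = 0.0209), but not in 4 of the alternatives. Foxm1 did not pass (log2 fold change -0.54, SE 0.26, adjusted p = 0.114). It was called lower in an edgeR fit of NPC and ESC alone (log2 fold change -0.56, adjusted p = 0.018). The same call came without Phc1-KO 1 or Phc1-KO 2. Of 14 genes of the anaphase-promoting complex and its partners, 4 were lower (28.6%) and 4 higher (28.6%), near the shares of all genes.

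The second comparison asked whether the same genes differed in cells labelled Phc1-/-. In Phc1-KO, 2 of the 37 genes were higher than in ESC (5.41%, where 4.91% of all genes were called higher) and 0 were lower (where 5.75% of all genes were called lower), by edgeR's quasi-likelihood test. These shares are near or below those of all genes. At an unadjusted p under 0.05, 5 genes were higher and 2 lower, where 14.4% of all genes were higher and 14.9% lower. DESeq2 called 4 higher and 0 lower, where it called 8.62% of all genes higher and 6.88% lower. The median log2 fold change was 0.01 over the 37 genes. For 31 of them the 95% interval lay within a 2-fold change in both directions. Comparisons of Phc1-KO and of NPC with ESC share the ESC libraries, and their values are therefore given side by side.

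Ccnd2 and Ccne1 were the genes called in Phc1-KO. The values of Ccnd2 given above were higher in both Phc1-KO libraries than in ESC, and passed the test (log2 fold change 1.12, SE 0.18, adjusted p = 0.0156), beside a log2 fold change of 3.70 in NPC. Ccne1 was likewise higher in both Phc1-KO libraries (log2 fold change 0.76, SE 0.13, adjusted p = 0.0179), beside a log2 fold change of -1.81 in NPC. Both calls were lost without ESC 1, without ESC 2 and with the ESC pair counted as 1 library. The log2 fold changes there were 1.15, 1.09 and 1.11 for Ccnd2, in the same order. For Ccne1 they were 0.80, 0.71 and 0.75. These fits leave 1 ESC library, and most calls over all genes were lost in them as well. The loss is therefore not particular to these 2 genes. Ccne1 was also not called without Phc1-KO 2 (log2 fold change 0.65), where most calls over all genes were lost too. The fibroblast marker sum, 1063 and 854 CPM in Phc1-KO against 419.9 and 412.7 CPM in ESC, moved in the same direction. Its 10 markers were not alike: 6 were called higher and 0 lower. Col1a1 overlapped ESC, and Col3a1 lay below ESC in both Phc1-KO libraries without passing. The part of these markers in the Ccnd2 and Ccne1 differences was not tested.

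Other genes whose libraries stood apart from ESC did not pass in Phc1-KO. Cdk4 had 382 and 478 CPM in Phc1-KO, against 301 and 290.5 CPM in ESC (log2 fold change 0.54, SE 0.14, adjusted p = 0.0555). Both Phc1-KO libraries lay above ESC. Aurka had 101 and 112 CPM in Phc1-KO, against 70.9 and 77.8 CPM in ESC (log2 fold change 0.52, SE 0.17, adjusted p = 0.0931). Mcm2 and Mcm5, whose values stand above, were higher in both Phc1-KO libraries than in ESC without passing, with log2 fold changes of 0.60 (SE 0.20, adjusted p = 0.100) and 0.52 (SE 0.23, adjusted p = 0.185). E2f2 had 21.9 and 20.2 CPM in Phc1-KO, against 14.9 and 13.9 CPM in ESC (log2 fold change 0.55, SE 0.26, adjusted p = 0.211). On the low side, Bub1 was below ESC in both libraries (log2 fold change -0.55, SE 0.15, adjusted p = 0.0668), as were Ccnd3, with 25.5 and 19.2 CPM in Phc1-KO against 34.2 and 29.8 CPM in ESC (log2 fold change -0.52, SE 0.19, adjusted p = 0.124), and Mki67 (log2 fold change -0.36, SE 0.17, adjusted p = 0.218). In all, both Phc1-KO libraries lay above both ESC libraries for 7 genes (32.6% of all genes) and below them for 9 (34.2% of all genes). DESeq2 on all 6 libraries called Cdk4 (adjusted p = 0.0138) and Mcm2 (adjusted p = 0.0439) higher, beside Ccnd2 and Ccne1. It called 8.62% of all genes higher and 6.88% lower. A fit of Phc1-KO and ESC alone called Cdk4, E2f2, Mcm2 and Aurka higher, beside Ccnd2 and Ccne1, and Bub1 and Mki67 lower. There 10.7% of all genes were called higher and 12.6% lower.

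The other 21 genes overlapped between Phc1-KO and ESC. Mybl2, Cdt1, Mcm10, Rrm1, Rrm2 and Bub1b were among those with a Phc1-KO library on either side of an ESC value. None of the 21 was called in any of the 16 alternatives, and 19 of them changed sign in at least 1.

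Of the 136 further pathway genes, 2 were higher (1.47%, where 4.91% of all genes were called higher) and 5 lower (3.68%, where 5.75% of all genes were called lower) in Phc1-KO than in ESC, so that both shares were below those of all genes. Cdkn2a had 49.3 and 40.6 CPM in Phc1-KO, against 12.8 and 14.6 CPM in ESC (log2 fold change 1.71, SE 0.31, adjusted p = 0.0197). Rb1 had 22.6 and 18.0 CPM in Phc1-KO, against 40.9 and 44.3 CPM in ESC (log2 fold change -1.07, SE 0.17, adjusted p = 0.0139). Cdkn1b had 55.7 and 57.8 CPM in Phc1-KO, against 94.7 and 91.9 CPM in ESC (log2 fold change -0.72, SE 0.15, adjusted p = 0.0279). The Cdkn2a locus was thus higher, and the retinoblastoma and p27 genes lower, in both Phc1-KO libraries. Orc2, a subunit of the origin recognition complex, was higher (log2 fold change 0.86, SE 0.18, adjusted p = 0.0308). Anln and Kif23, which act at the cleavage furrow and the central spindle, were lower (-0.67, SE 0.11, adjusted p = 0.0175, and -0.66, SE 0.13, adjusted p = 0.0239). Atr, the kinase that activates Chek1, was lower (log2 fold change -0.61, SE 0.15, adjusted p = 0.046). None of these 7 calls held when the ESC pair was counted as 1 library, where the log2 fold change was 1.71 for Cdkn2a and -0.61 for Atr. None held without ESC 1 or without ESC 2 either, and each was lost without Phc1-KO 2. These fits leave 1 library in a group, and most calls over all genes were lost in them as well. The loss is therefore not particular to these 7 genes.

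The third comparison set Phc1-KO against NPC, since the cell type entry of Phc1-KO reads NPC. In Phc1-KO, 29 of the 37 genes were higher than in NPC (78.4%, where 32.3% of all genes were called higher) and 1 was lower (2.7%, where 32.7% of all genes were called lower), with a median log2 fold change of 1.37. In either direction 64.9% of all genes were called. Both Phc1-KO libraries lay above both NPC libraries for 33 of the 37 genes (40.9% of all genes) and below them for 2 (40.5% of all genes). The 1 lower gene was Ccnd2 (log2 fold change -2.59, SE 0.19, adjusted p = 5.76e-05). Of the genes higher in Phc1-KO, Mybl2 differed most (log2 fold change 4.43, SE 0.27, adjusted p = 2.91e-05), followed by Mcm2 (log2 fold change 2.99, SE 0.21, adjusted p = 5.34e-05), Mcm5 (log2 fold change 2.60, SE 0.24, adjusted p = 0.00015) and Ccne1 (log2 fold change 2.57, SE 0.14, adjusted p = 2.01e-05). All 9 licensing genes, all 4 regulators of S-phase entry and 10 of 12 genes of G2 and mitosis were higher in Phc1-KO. Ccnd3, Cdk6, Ccne2, Cdk2, Rrm1, Aurkb and Mki67 did not pass. Mki67 differed least, with a log2 fold change of 0.05 and a 95% interval of -0.36 to 0.45. Cdk4, which did not pass in NPC against ESC, was higher in Phc1-KO than in NPC (log2 fold change 0.56, SE 0.14, adjusted p = 0.0106), and so was E2f2 (log2 fold change 0.77, SE 0.26, adjusted p = 0.0339), whose call was lost in 7 of the 16 alternatives; Rrm2, Wee1 and Plk1 also lost theirs in 5, 4 and 1 of them. Both comparisons use the same NPC libraries. The further pathway genes gave 89 of 136 higher (65.4%) and 14 lower (10.3%) in Phc1-KO than in NPC, beside the shares of all genes given above. Cdkn2c was the lowest of them (log2 fold change -4.17, SE 0.38, adjusted p = 0.000138), and Cdkn1c and Cdkn1a were lower by -1.75 and -1.74 on the log2 scale.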

How the data were processed

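Total RNA was extracted with TRIzol, treated with DNase and cleared of ribosomal RNA with Ribo-Zero Gold, and TruSeq libraries were sequenced as single-end reads on a HiSeq2000, per the labels' protocols. The deposited values are raw read counts per Ensembl gene, not normalized by the authors. STAR, HTSeq and the mm9 genome are named in the submitters' processing notes; their versions, the annotation and the strandedness of the counting are not given in these sources. Each table held 37620 genes and 5 tallies of reads given to no gene, which were left out. Reads outside genes numbered 1.03 and 1.09 per gene read in NPC and 1.08 and 0.661 in Phc1-KO, against 0.839 and 0.851 in ESC. GENCODE M1 gave symbols for 37205 genes, positions and exon lengths.

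The main test was edgeR 4.0.16 (quasi-likelihood, TMM scaling, filterByExpr with a minimum count of 10 and total of 15) in R 4.3.3. All 6 libraries entered 1 fit, with 3 residual degrees of freedom, and p-values were adjusted by Benjamini-Hochberg over 17489 genes at a threshold of 0.05. CPM divide a count by the TMM-scaled library size, times 1000000, and CPM per kb divides by the summed exon length. The SE is the log2 fold change over the square root of F, and the 95% interval follows from it. Scripts were tested on simulated data. The members, further lists and markers were chosen with earlier results of these data known. Named genes are all 37 members, Phc1, 15 fixed pathway genes and the 3 largest called changes per list, of which a selection is printed. Promoters came from RefSeq (GRCm38.p6 table). Alternatives were DESeq2 1.42.0, limma-voom (limma 3.58.1), 3 other scalings, 2 filters, fits of 2 groups, a replicate block, the ESC pair counted as 1 library and each library left out. Depth and n = 2 limit precision, and reads carry no molecular identifiers.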

Additional observations from a re-analysis of the deposited data

How the results depend on the processing

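In alternatives that keep 2 libraries in each group, 1 gene was called higher and 28 to 31 lower in NPC against ESC. Of all genes, 18.4% to 31.5% were called higher there and 19.4% to 33.8% lower. In Phc1-KO against NPC, 26 to 31 genes were higher and 1 lower. There 20.5% to 34.1% of all genes were called higher and 20.4% to 33.9% lower. In fits that leave 1 library in a group, only the median log2 fold change over the 37 genes is given. It ran from -1.59 to -1.21 in NPC against ESC and from 1.27 to 1.61 in Phc1-KO against NPC. In Phc1-KO against ESC the count of 2 higher became 4 with DESeq2, 6 in a fit of the 2 groups alone and 0 with the ESC pair counted as 1 library, and ran from 0 to 6 when a library was left out (0 without ESC 1 or ESC 2, 6 without NPC 1 or NPC 2, 3 without Phc1-KO 1, 1 without Phc1-KO 2). The count of 0 lower became 1 with upper-quartile or total-count scaling and 2 in the fit of the 2 groups alone, and ran from 0 to 1 when a library was left out. A fit with fewer groups or libraries has fewer degrees of freedom and another estimate of spread; the cause of the other shifts was not tested. Over all genes tested in Phc1-KO against ESC, the fit of the 2 groups alone called 1791 higher and 2108 lower, against 858 and 1006 in the 6-library fit. Fewer were called without ESC 1, ESC 2, Phc1-KO 1 or Phc1-KO 2, or with the ESC pair counted as 1 library. More were called without NPC 1 or NPC 2. Signs reversed for 4 genes not called in the 6-library fit, beside the 19 overlapping genes of Phc1-KO against ESC that changed sign in some alternative: E2f2 in NPC against ESC ran from -0.65 (called lower, adjusted p = 0.0232) to 0.11, Cdkn1b in the same comparison from -0.28 to 0.0201, Mki67 in Phc1-KO against NPC from -0.17 to 0.31 and Ccne2 from -0.14 to 0.38 (called higher, adjusted p = 0.0416), each over fits without 1 library. Upper-quartile scaling moved the median of all genes in NPC against ESC to -0.11 on the log2 scale. Replicate numbers did not pair the libraries (correlations of same-numbered deviations 0.02, 0.02 and -0.02); with the replicate block the counts of the 37 genes stayed at 1 higher and 28 lower, 2 and 0, and 29 and 1. Pairs of libraries leave changes under about 2-fold hard to detect for the genes that differ most between replicates.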
